A study of Homo sapiens with 14 samples.

Results

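GDF15 encodes growth differentiation factor 15, a secreted stress cytokine, and the windows described here are those of GDF15 itself, of the microRNA gene MIR3189 that lies inside it, and of its flanking genes PGPEP1 and LRRC25 on chromosome 19. They were picked by gene symbol from a table with 1 window of 1000 bp per gene, and are 4 of its 28159 windows. GDF15 and MIR3189 came to notice through their response to Nutlin3a without peptide, so values of that contrast are given as a description and were not tested. All libraries came from HCT116, a human colorectal carcinoma line labelled wild-type, and 6 of them are chromatin immunoprecipitations (ChIP-seq) of RNA polymerase II carrying phosphate on Ser5, made with antibody 3E8. Every group was electroporated, and the peptide groups took up 10 µM of a bivalent stapled peptide in that step, which is meant to block the contact of p53 with Mediator. They were then held for 3 h in 0.1% DMSO or in 10 µM Nutlin3a, and the peptide cells had a further 200 nM of it in the medium. Cells without peptide received water in its place and gave 2 ChIP libraries for DMSO and 2 for Nutlin3a. DMSO with peptide and Nutlin3a with peptide gave 1 each, both numbered replicate 2. Each of the 4 treatments also had 2 inputs, sheared chromatin sequenced without immunoprecipitation. The sources used here do not say whether replicates were separate cultures, and if they were not, the errors measure technical spread.

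Nutlin3a keeps the ligase MDM2 from binding p53, so p53 accumulates and switches on its target genes, of which GDF15 is one of the best known. The mature GDF15 protein belongs to the TGF-beta superfamily and signals through the receptor GFRAL with its partner RET, a route known for reducing food intake. GDF15 is also induced by the factor ATF4 during nutrient and endoplasmic reticulum stress. Ser5 of the polymerase tail is phosphorylated as transcription starts, so the mark is densest near start sites. PGPEP1 encodes pyroglutamyl-peptidase I, which removes a modified first residue from peptides. LRRC25 encodes a leucine-rich repeat membrane protein of myeloid cells.

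In hg38 coordinates the GDF15 window (transcript NM_004864) covers bases 18385858 to 18386857 of chromosome 19 and the MIR3189 window (NR_036156) bases 18386262 to 18387261. The GDF15 gene runs from 18386158 to 18389176 on the plus strand. The windows share 596 bp, from position 105 to 700 counted from the GDF15 start, and reads there were counted for both genes. The remaining 404 bp of the GDF15 window hold the upstream flank and the start (position -300 to 104), and the remaining 404 bp of the MIR3189 window lie deeper in the gene (701 to 1104). The hairpin of MIR3189, at 18386562 to 18386634, falls in the shared stretch, so the MIR3189 window reports on polymerase in GDF15 and holds no separate promoter that the counts could tell apart. The PGPEP1 window (NR_138029) covers 18340298 to 18341297, and its start lies 45.6 kb before that of the GDF15 window. The LRRC25 window (NM_145256) covers 18397323 to 18398322, with its start 11.5 kb after that of GDF15, and neither overlaps another window of the table within 100 kb of GDF15. Windows were placed without regard to strand: 70.4% of 9216 plus-strand genes had 300 bp before the start and 700 bp of gene, while 72.4% of 8793 minus-strand genes had 700 bp before the start and 300 bp of gene. LRRC25 is a minus-strand gene with that second placement.

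The sequences of the microRNA are shown because its window is one of the members and lies over its host gene. They were taken from RefSeq (GRCh38.p14), which held MIR3189, 1 of 1 microRNA among the members. In the hairpin (chr19:18386562-18386634, plus strand) capitals mark the mature arms, and in each arm capitals mark the seed, bases 2 to 8, which sets its targets. None of the other mature microRNAs in that table, which holds 2370 names, has the seed of either arm.
MIR3189 hairpin: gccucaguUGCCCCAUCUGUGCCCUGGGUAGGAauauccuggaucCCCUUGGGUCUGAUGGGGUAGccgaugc
hsa-miR-3189-5p: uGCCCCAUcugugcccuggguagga
hsa-miR-3189-3p: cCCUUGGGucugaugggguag

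The GDF15 promoter is shown because it lies in the GDF15 window, whose values are described here. The 250 bases before the start (chr19:18385908-18386157, plus strand, RefSeq GRCh38.p14) have a GC content of 58.4%, and all of them lie in the part that only the GDF15 window covers. Capitals mark matches on either strand to the TATA box TATAAA, to the GC box GGGCGG and to the motif CCAAT, and these matches do not overlap each other here.
GDF15 promoter: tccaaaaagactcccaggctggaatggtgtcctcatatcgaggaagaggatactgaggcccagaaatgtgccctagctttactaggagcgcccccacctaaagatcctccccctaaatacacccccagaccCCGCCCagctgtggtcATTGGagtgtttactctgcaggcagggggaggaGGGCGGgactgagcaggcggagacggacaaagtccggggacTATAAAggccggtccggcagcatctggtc

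Over this stretch and the first 50 bases of the gene, TATAAA occurred once, at -29 to -24, and 11.5% of all 35116 promoters of that length held it on either strand. GGGCGG occurred at -70 to -65 and, on the minus strand, at -119 to -114, and 45.0% of promoters held it. CCAAT occurred on the minus strand at -103 to -99, and 34.6% held it. The AP-1 motif TGANTCA (7.71% of promoters), the E-box CACGTG (7.26%) and the composite ATF4 motif TGATGCAA (0.866%) had no match. The p53 half-site, searched by its consensus without mismatch, had none either, against a share of 6.63%. That means only that these letters are not in the stretch searched. The rest of the 1000 bp window was not searched. The table held promoters for 2 of the members, GDF15 and LRRC25. The LRRC25 promoter held GGGCGG at -65 to -60 and none of the other motifs.

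Before p53 was stabilised, GDF15 carried a moderate Ser5-phosphorylated polymerase signal that was not set apart from input. In CPM (a window's reads relative to all window reads of its library, scaled by TMM, a correction for composition), the GDF15 window stood at 45.2 and 47.8 CPM in DMSO replicates 1 and 2 (46.5 ± 1.84, SD, n = 2). That mean was higher than in 71.5% of all windows. MIR3189 stood at 25.0 and 30.8 CPM (27.9 ± 4.12), PGPEP1 at 21.1 and 19.0 CPM (20.1 ± 1.51) and LRRC25 at 6.73 and 7.71 CPM (7.22 ± 0.692). All windows have 1 length, so these levels can be compared: their order from high to low was GDF15, MIR3189, PGPEP1 and LRRC25 in both libraries. The nearest values were those of MIR3189 and PGPEP1 in replicate 1, 25.0 and 21.1 CPM.

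In the 8 inputs the GDF15 window ranged from 25.0 to 68.8 CPM with a median of 47.2 CPM, and MIR3189 from 18.5 to 93.1 CPM with a median of 47.0 CPM. ChIP over input under DMSO was 0.12 ± 0.44 on the log2 scale for GDF15 (SE, n = 2 per group, 1.09-fold, 95% interval 0.584 to 2.03) and did not pass (edgeR quasi-likelihood test, adjusted p = 0.865). MIR3189 was at -0.46 ± 0.52 and turned to 0.79 without input DMSO replicate 1, which held 18 reads there against 4 in replicate 2. PGPEP1 was at -1.30 ± 0.62 (adjusted p = 0.141) and LRRC25 at -2.27 ± 0.97 (adjusted p = 0.100), by the same edgeR test. The PGPEP1 value was -1.84 without input DMSO replicate 1 and -0.50 without replicate 2. The LRRC25 value ranged from -3.04 without input DMSO replicate 2, where it passed (edgeR adjusted p = 0.0236, and 0.0236 to 0.965 over its alternatives), to -0.15 without replicate 1. The value for GDF15 was -0.046 with DESeq2 and -0.047 with its size factors in edgeR. Of 21504 windows tested, 10.9% were called higher in ChIP and 5.27% lower, and of the 4 members 0 were called in either direction. Each library is scaled to its own window reads, so this ratio ranks windows and is not an absolute enrichment. GDF15 ranked above 53.4% of tested windows and LRRC25 above 6.83%.

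LRRC25 had a level like that of silent windows. In the 6 ChIP libraries it ranged from 5.33 to 11.4 CPM, or 7 to 19 reads. The median of 14 windows of myeloid and mesenchymal marker genes, which this epithelial line should not transcribe, ranged from 4.57 to 8.76 CPM in the same libraries. The myeloid factor gene SPI1 stood at 3.81 to 11.2 CPM, but FCER1G of the same myeloid list stood higher, at 17.3 to 24.5 CPM. Of 9 colon epithelial markers, 4 were called higher in ChIP than in input under DMSO and 2 lower, beside 10.9% and 5.27% of 21504 windows. The keratin genes KRT8 (256 CPM with DMSO) and KRT18 (289 CPM) and the adhesion gene EPCAM (112 CPM) carried high signal, whereas KRT20 (3.48 CPM) and VIL1 (8.09 CPM) were near the silent windows.

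After Nutlin3a without peptide, GDF15 and MIR3189 stood at more than 2 times their DMSO level in both replicates, while the flanking genes differed less. GDF15 read 113 and 120 CPM (116 ± 5.20, SD, n = 2), from 148 and 201 reads against 94 and 93 with DMSO. The ratio was 2.50-fold in replicate 1 and 2.51-fold in replicate 2, and the fitted log2 change was 1.33 ± 0.22 (SE). MIR3189 read 96.8 and 88.5 CPM (92.6 ± 5.89), which was 3.87-fold and 2.87-fold within the replicate numbers and 1.73 ± 0.24 in the fit. Both Nutlin3a libraries lay above both DMSO libraries for these windows, by more than the range within either pair. Over all 25901 windows, 16.1% had both Nutlin3a libraries above both DMSO libraries. The members were chosen on this contrast, in which edgeR called 0.00772% of 25901 windows, so nothing is read from it. Nutlin3a replicate 1 had the highest median over the silent windows (8.76 CPM, where the other 5 lay between 4.57 and 7.53 CPM). Its part in the result was not tested, and the change at GDF15 was 1.29 to 1.37 with each library without peptide left out in turn. The chromatin came from whole cultures, so more cells with polymerase and more polymerase per cell cannot be told apart.

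PGPEP1 read 29.0 and 25.1 CPM (27.0 ± 2.73), above the DMSO pair in both libraries but by 1.37-fold and 1.32-fold only, with a fitted change of 0.42 ± 0.34. LRRC25 read 5.33 and 11.4 CPM (8.34 ± 4.26), 1 library below and 1 above the DMSO pair, with 0.23 ± 0.64 in the fit and -0.42 without Nutlin3a replicate 2. At 7 to 19 reads per library, the 95% interval at LRRC25 ran from -1.12 to 1.58, and no change within it was detectable at this depth.

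**Figure D1:**
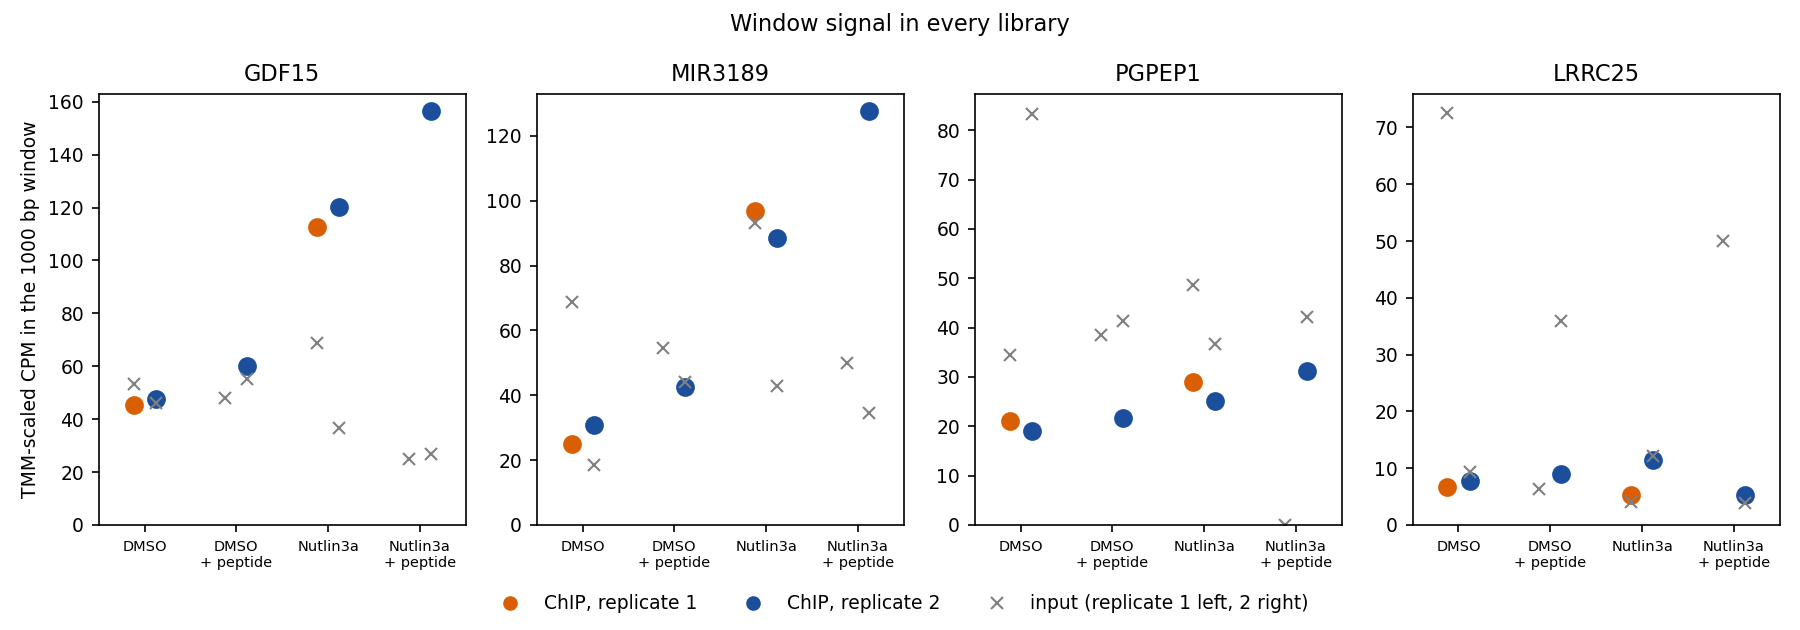
TMM-scaled CPM (vertical axis) of the windows of GDF15, MIR3189, PGPEP1 and LRRC25 in every library, by treatment (horizontal axis), with dots for ChIP libraries and crosses for inputs. The 3 Nutlin3a libraries of GDF15 sit between 113 and 157 CPM, above all 3 DMSO libraries and all 8 inputs, whereas the ChIP libraries of LRRC25 stay between 5.33 and 11.4 CPM.

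With a peptide meant to keep p53 from Mediator, the question was whether the locus still responds. Whether that contact was blocked in these cells was not tested. The separate pair of libraries with peptide gave values of the same size. GDF15 read 60.3 CPM with DMSO and 157 CPM with Nutlin3a, 2.6-fold, from 108 and 352 reads. MIR3189 read 42.4 and 128 CPM, 3.01-fold, from 76 and 287 reads. PGPEP1 went from 21.8 to 31.1 CPM (1.43-fold) and LRRC25 from 8.93 to 5.34 CPM (16 and 12 reads). Of 25901 windows, 0.981% had a ratio above 2 in each of the 3 pairs, with peptide and in both replicates without it, and GDF15 and MIR3189 were among them. With the peptide alone that share was 5.84%. The pairs without peptide chose the members, and GDF15 and MIR3189 share reads, so their place in the first share is a description.

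The fitted changes with peptide were 1.38 ± 0.30 for GDF15, 1.59 ± 0.32 for MIR3189, 0.51 ± 0.47 for PGPEP1 and -0.74 ± 0.90 for LRRC25 (log2, SE, 1 library per group). None passed edgeR's quasi-likelihood test over all windows (adjusted p = 1 for GDF15, 0.955 for MIR3189 and 1 for the flanking genes). The share called over 25901 windows was 0%, with 150 windows higher and 109 lower at an unadjusted p under 0.05, and 2 higher and 0 lower with DESeq2. The unadjusted p from edgeR was 0.000283 for GDF15 and 0.000111 for MIR3189. Each lone library was assumed to vary like the pairs without peptide, so the test rests on that assumption. The outcome differed with the libraries used, and the cause was not tested. Without Nutlin3a replicate 1 the changes were 1.37 for GDF15 and 1.58 for MIR3189 and both passed by edgeR (adjusted p = 0.00243 and 0.00121). Without Nutlin3a replicate 2 both passed as well (adjusted p = 0.0272 and 0.0187 by edgeR), at 1.38 and 1.59. The adjusted p of GDF15 ran from 0.00243 to 1 over 9 alternatives, and that of MIR3189 from 0.00121 to 1. These responses with peptide were known from earlier work on these data and are not independent support.

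The difference between the responses, with minus without peptide, was 0.05 ± 0.37 for GDF15, a factor of 1.04 with a 95% interval of 0.600 to 1.79. For MIR3189 it was -0.14 ± 0.39, a factor of 0.907 (0.511 to 1.61). Both intervals include a smaller and a larger response with peptide. The libraries without peptide chose the members, so the difference was not tested. The authors' constants gave -0.04 for GDF15. For PGPEP1 it was 0.09 ± 0.59 and for LRRC25 -0.97 ± 1.10, intervals too wide to tell a change from none.

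In TMM-scaled CPM, the peptide libraries read higher than those without peptide at 3 of the members, under either treatment. With the authors' constants PGPEP1 turned to -0.12 under DMSO and -0.14 under Nutlin3a on the log2 scale. GDF15 under DMSO was 60.3 CPM with peptide against 45.2 and 47.8 CPM without, and under Nutlin3a 157 CPM against 113 and 120 CPM. Within replicate 2 the ratio was 1.26-fold under DMSO and 1.30-fold under Nutlin3a for GDF15, and 1.38-fold and 1.44-fold for MIR3189. PGPEP1 had 1.15-fold and 1.24-fold. LRRC25 had 1.16-fold and 0.470-fold, on few reads. A peptide library above both others under DMSO and under Nutlin3a was found for 10.6% of 25901 windows.

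Under DMSO the fitted difference between peptide and none was 0.38 ± 0.27 for GDF15 (1.30-fold, 95% interval 0.871 to 1.93), 0.60 ± 0.30 for MIR3189 (1.52-fold, 0.986 to 2.35), 0.12 ± 0.42 for PGPEP1 and 0.31 ± 0.76 for LRRC25. None passed (edgeR adjusted p = 1 for each, with 0% of windows called, 178 higher and 215 lower at an unadjusted p under 0.05, and 0 with DESeq2). This comparison shares the DMSO libraries of the contrast that chose the members. Under Nutlin3a, where it shares the Nutlin3a libraries, the difference was 0.43 ± 0.25 for GDF15 (1.34-fold, 0.936 to 1.93), 0.46 ± 0.25 for MIR3189 and 0.21 ± 0.40 for PGPEP1, and -0.66 ± 0.80 for LRRC25. The authors' own scaling constants moved it to 0.11 for GDF15 and 0.11 for MIR3189, and the median of all windows from -0.02 to -0.33. The groups of GDF15 thus rank DMSO, DMSO with peptide, Nutlin3a and Nutlin3a with peptide from low to high. The steps from DMSO to DMSO with peptide and from Nutlin3a to Nutlin3a with peptide have intervals that include no change.

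**Figure D2:**
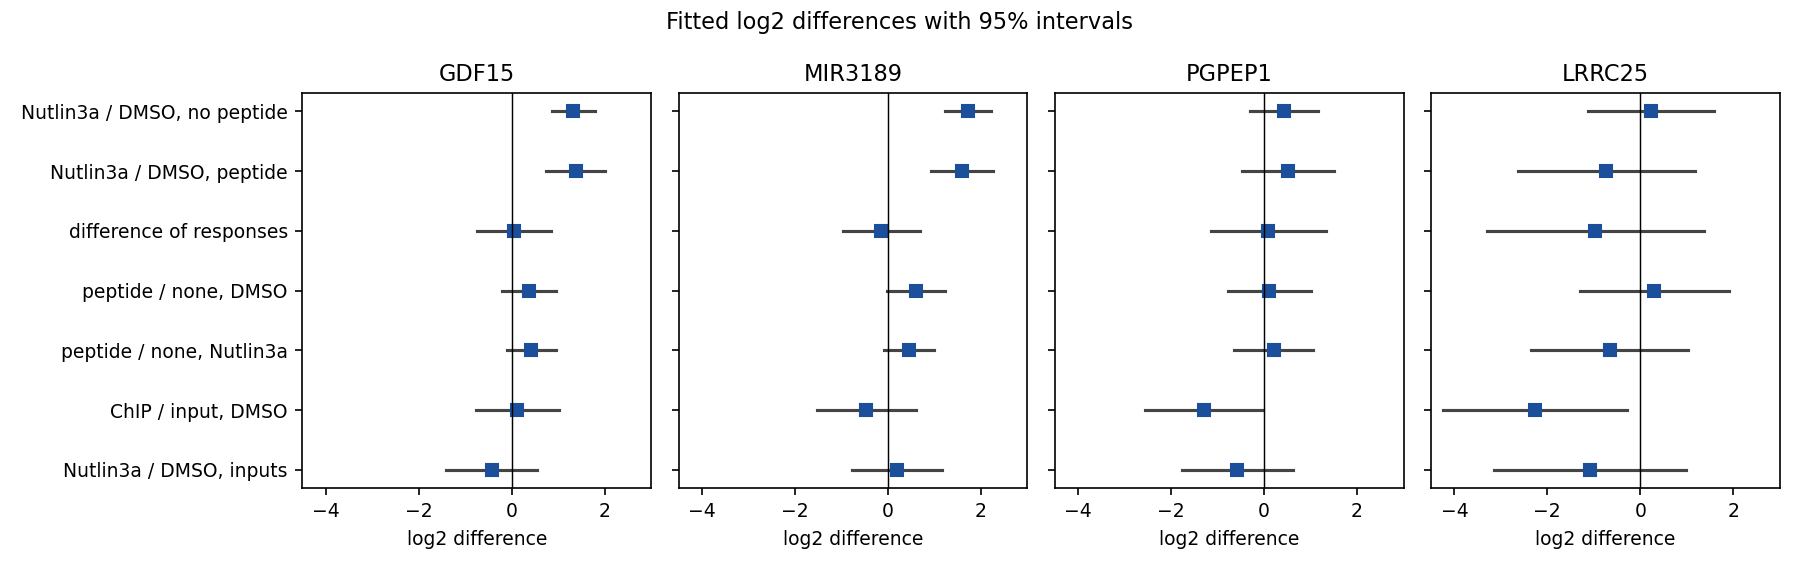
Fitted log2 differences (horizontal axis, squares) with 95% intervals (lines) for 7 comparisons at each member. With peptide, the Nutlin3a interval of GDF15 runs from 0.74 to 2.01 and that of MIR3189 from 0.92 to 2.26; the comparison without peptide chose the members and is a description.

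The MIR3189 count came closer to the GDF15 count in the Nutlin3a libraries than in the DMSO libraries. Because the windows of GDF15 and MIR3189 overlap, the GDF15 count minus the MIR3189 count equals the reads in the 404 bp around the start minus those in the 404 bp deeper in the gene, apart from reads that cross an edge. This difference was 42 and 33 reads in the DMSO libraries and 32 with peptide, so at least 44.7%, 35.5% and 29.6% of the GDF15 reads lay in the stretch around the start. With Nutlin3a it was 21 and 53 reads and 65 with peptide, a least share of 14.2%, 26.4% and 18.5%. These least shares were lower in every Nutlin3a library than in every DMSO library, but they are lower bounds and do not give the share itself.

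As a log2 ratio of MIR3189 to GDF15 reads, the DMSO libraries stood at -0.85 and -0.63, and at -0.51 with peptide. The Nutlin3a libraries stood at -0.22 and -0.44, and at -0.29 with peptide. The groups of 3 did not overlap, and their nearest values were -0.51 and -0.44. The mean difference was 0.35, and 0.25 to 0.41 with each of the 4 libraries without peptide left out in turn. In the inputs, which carry few reads, the ratio ranged from -1.32 to 1.00, and over their sum of 93 GDF15 and 102 MIR3189 reads it was 0.13. Among 380 other pairs of windows that start 304 to 504 bp apart and average at least 20 CPM, 13 pairs (3.42%) had a larger absolute change in this ratio, computed from log2 CPM as 0.33 here. Their median was 0.07, and 27 pairs (7.11%) had groups of 3 that did not overlap. This ratio comes from the counts that chose the members, so it was not tested.

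**Figure D3:**
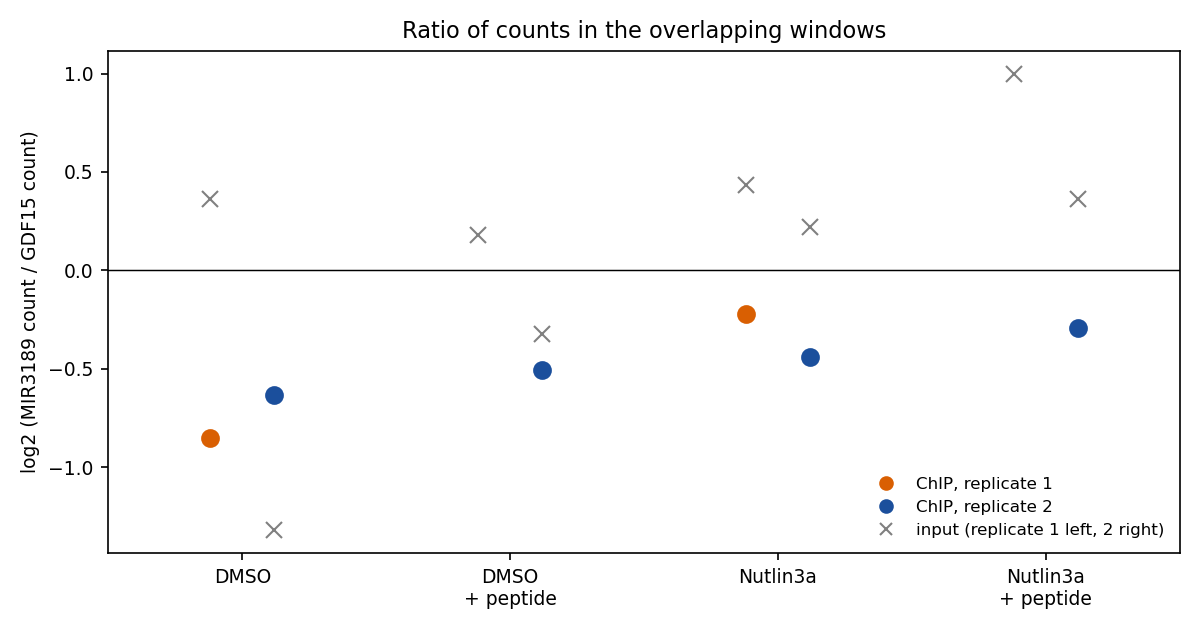
Log2 ratio of MIR3189 to GDF15 counts (vertical axis) in every library by treatment (horizontal axis), with dots for ChIP and crosses for inputs. All 6 ChIP libraries lie below 0, the 3 DMSO libraries between -0.85 and -0.51 and the 3 Nutlin3a libraries between -0.44 and -0.22.

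Apart from MIR3189, the windows around GDF15 had smaller Nutlin3a ratios than GDF15 in all 3 pairs. Within 100 kb the table held 7 windows, the 4 members and those of LSM4 (63.1 kb before), which encodes an Sm-like RNA-binding protein, SSBP4 (33.2 kb after), a single-stranded DNA-binding protein gene, and ISYNA1 (52.0 kb after), which encodes the enzyme that makes inositol phosphate. Between the end of the PGPEP1 gene and the start of GDF15 lie 16207 bp, and the LRRC25 gene ends 1960 bp beyond the end of GDF15, since both run towards each other. Log2 ratios of Nutlin3a over DMSO at LSM4 were -0.25 and -0.17 without peptide and 0.17 with it. At SSBP4 they were -0.76 and -0.16, and 0.20 with peptide. At ISYNA1 they were 0.04 and 0.27, and 0.41 with peptide.

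None of the 3 outer genes passed edgeR's test with peptide (adjusted p = 1 for each). PGPEP1 ratios were 0.43, 0.38 and 0.50, the steadiest of the flanking windows. Its 3 Nutlin3a libraries (25.1 to 31.1 CPM) all lay above its 3 DMSO libraries (19.0 to 21.8 CPM), as did those of GDF15 and MIR3189, a pattern found at 4.76% of 25901 windows, while the reverse was found at 4.81%. The fitted Nutlin3a intervals of PGPEP1 crossed 0. The libraries without peptide chose GDF15 and MIR3189, so the pattern is a description. Over the 6 ChIP libraries the log2 CPM of PGPEP1 correlated with that of GDF15 at a Pearson r of 0.937, against 0.837 for ISYNA1, -0.15 for LSM4, -0.21 for LRRC25 and -0.35 for SSBP4. These libraries share depth and scaling, and the values are descriptions.

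**Figure D4:**
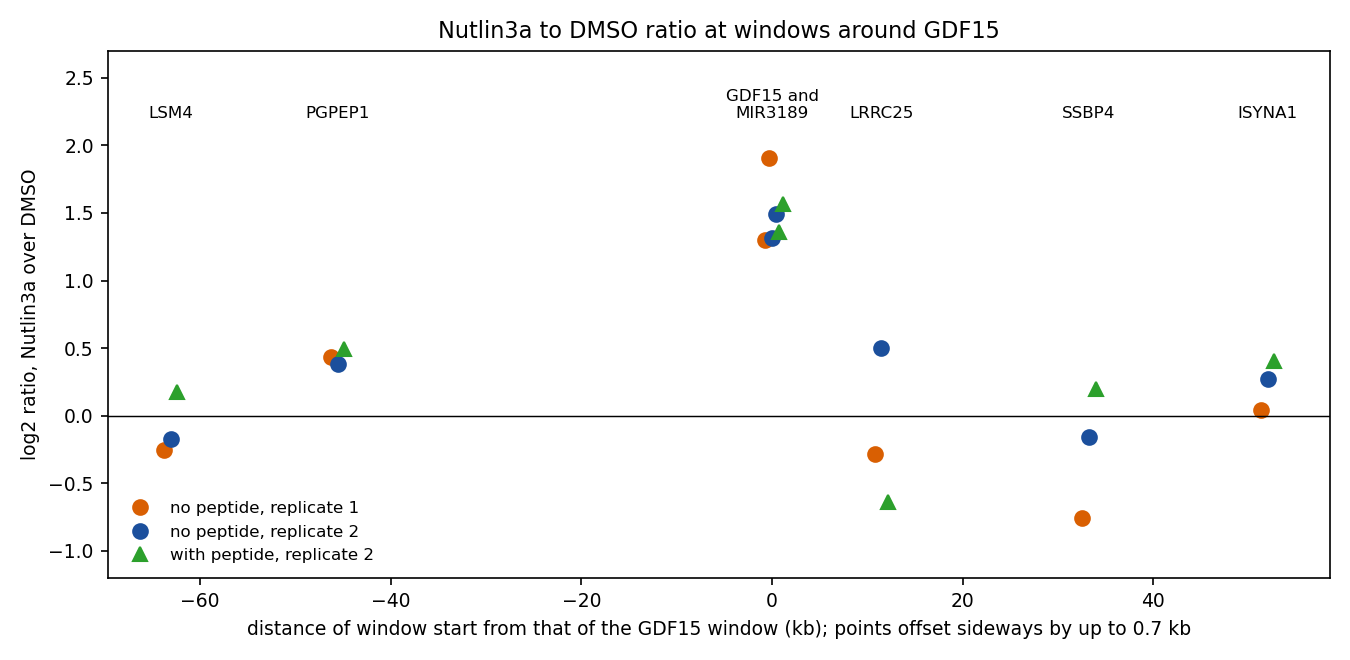
Log2 ratio of Nutlin3a over DMSO (vertical axis) at the 7 windows within 100 kb, by the distance of their start from that of the GDF15 window in kb (horizontal axis), for replicates 1 and 2 without peptide and for the peptide pair. GDF15 and MIR3189 lie between 1.30 and 1.91, and every other window lies between -0.76 and 0.50.

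No difference was called in the inputs. Nutlin3a against DMSO over the 8 inputs was -0.43 ± 0.48 for GDF15 (log2, SE, 4 inputs per treatment), 0.20 ± 0.47 for MIR3189, -0.58 ± 0.58 for PGPEP1 and -1.08 ± 1.01 for LRRC25. None passed (edgeR adjusted p = 0.998 for each), and 0% of 14573 windows were called, with 234 higher and 231 lower at an unadjusted p under 0.05, and 0 with DESeq2. With 1 input left out in turn, PGPEP1 ranged from -0.17 (without Nutlin3a with peptide, replicate 1) to -3.37 (without replicate 2 of that group). LRRC25 ranged from -0.03 (without DMSO replicate 1) to -2.34 (without Nutlin3a with peptide, replicate 1).

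Some windows followed GDF15 closely over the 6 ChIP libraries, by Pearson correlation of log2 CPM among 12989 windows of at least 20 CPM that do not overlap it. They are the top of that ranking, and the libraries without peptide chose GDF15, so r is a description here. The closest was BBC3, which encodes the death factor PUMA (r = 0.996), at 21.6 and 21.6 CPM with DMSO, 30.1 with peptide, 64.0 and 63.4 with Nutlin3a and 79.6 with both. MDM2 was next (r = 0.994), at 103, 99.7, 122, 169, 192 and 213 CPM in the same order. Both had their lowest values with DMSO, a step up with peptide and their highest value with Nutlin3a and peptide, as GDF15 did.

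The noncoding gene LOC286059 (r = 0.989) shares its window in part with TNFRSF10B, a death receptor gene. DSE, which encodes an epimerase of dermatan sulfate (r = 0.988, window shared in part with LOC100287467), ranged from 33.2 to 54.2 CPM. DRAM1, a p53 target in autophagy (r = 0.982), ranged from 45.7 to 93.4 CPM, and MCOLN1, a lysosomal channel gene (r = 0.981), from 25.5 to 37.1 CPM. The last named changed by a far smaller factor than GDF15, since the measure compares shape and not size. The window of MIR3189 itself correlated at 0.993, with shared reads.

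**Figure D5:**
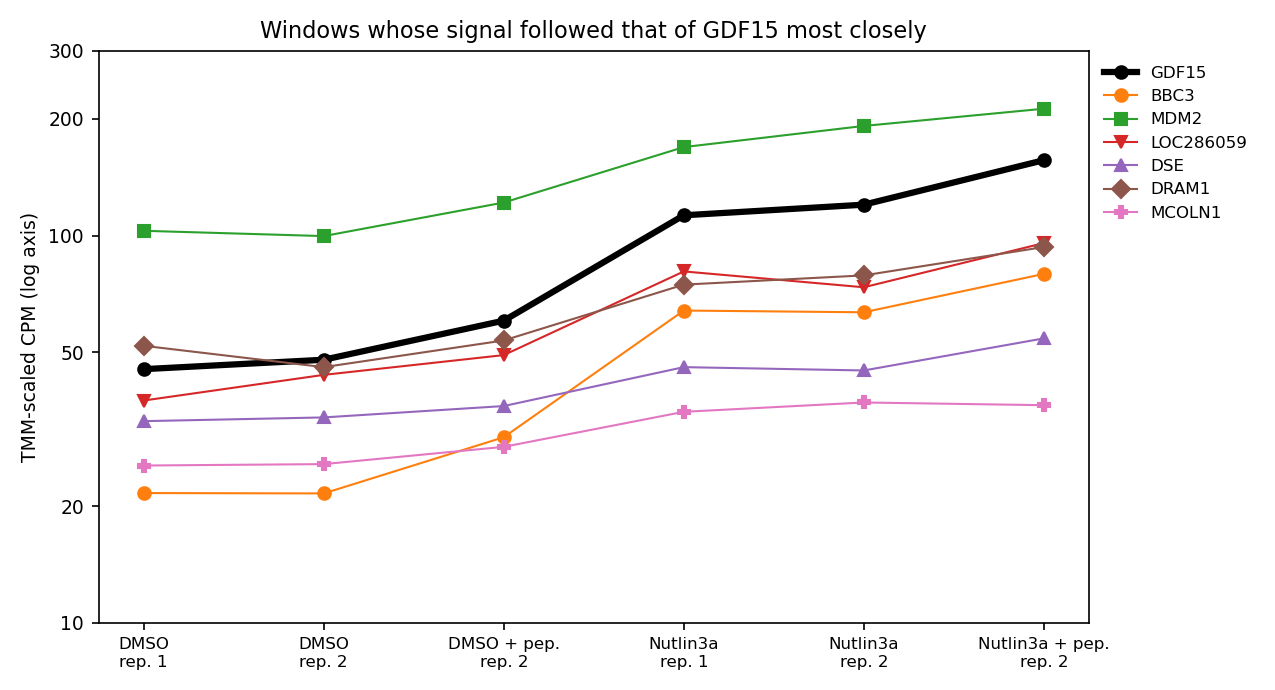
TMM-scaled CPM (vertical log axis) of GDF15 and the 6 windows whose log2 CPM correlated best with it, in the 6 ChIP libraries (horizontal axis); lines only join points of 1 window. Each window is lowest in the DMSO libraries and higher in all 3 Nutlin3a libraries, with GDF15 rising from 45.2 to 157 CPM and MCOLN1 from 25.5 to no more than 37.1 CPM.

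No gene of the receptor and processing list was called with Nutlin3a, where 0.00772% of 25901 windows were called without peptide and 0% with it. The receptor gene GFRAL had 0 to 2 reads in each ChIP library, under the 3 reads that a count of 0 allows, and was not tested. The co-receptor gene RET read 12.0 and 25.7 CPM with DMSO and 9.14 and 18.5 CPM with Nutlin3a. FURIN, a convertase of the kind that cuts precursor proteins, read 43.7 and 45.7 CPM with DMSO and 35.1 and 37.1 CPM with Nutlin3a. Of 5 tested receptor and processing genes, 0 were called either without or with peptide, and their median log2 changes were -0.08 and -0.28, beside 0.04 and 0.00 over all tested windows.

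Of 9 transcription factor genes reported to act on GDF15, 0 were called by edgeR in either Nutlin3a comparison. Over all 25901 windows the share was 0.00772% without peptide and 0% with it. The medians of the 9 genes were -0.13 without peptide and 0.10 with it. ATF4 had the highest signal of the group, at 274 and 326 CPM with DMSO and 204 and 267 CPM with Nutlin3a. ATF3, a stress factor gene, read 74.5 and 41.1 CPM with DMSO, 82.3 and 77.7 CPM with Nutlin3a, and 65.9 and 133 CPM in the peptide pair, with log2 ratios of 0.14, 0.90 and 1.01. EGR1, an early growth response gene, had ratios of -0.36, -0.06 and 0.08. Of these 9 genes 4 were called higher in ChIP than in input under DMSO, beside 10.9% of 21504 tested windows. GDF15 was not called (edgeR adjusted p = 0.865).

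Of 30 other p53 targets, 1 was called higher without peptide (TP53INP1) and 0 lower, and the median log2 change was 0.63, with 27 above 0. Over all 25901 windows 0.00772% were called, the median was 0.04 and 54.0% lay above 0. GDF15, at 1.33, lay between CYFIP2 (1.26) and CDKN1A (1.39). With peptide, 0 were called in either direction and the median was 0.78, with 29 above 0, beside 0% called, a median of 0.00 and 49.3% above 0 over all windows. GDF15 at 1.38 lay between TP53INP1 (1.29) and RPS27L (1.38). Of 18 genes of the ATF4 and integrated stress response, 0 were called in either comparison. Of the 18, 15 lay above 0 without peptide and 16 with it. Their medians were 0.21 and 0.39, below the values of GDF15. SESN2, a stress-induced regulator of mTORC1, is on both lists (0.77 and 0.81). With CHAC1, a glutathione-degrading enzyme gene (0.60 and 0.95), it was among the larger values. The 18 ran from -0.48 to 1.19 without peptide and from -1.26 to 1.02 with it. These lists were chosen with results of these data known, and their values are descriptions.

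Of the 32 listed TGF-beta superfamily ligand genes, to which GDF15 belongs, 29 were tested. With Nutlin3a 0 were called either without or with peptide, beside 0.00772% and 0% of all windows. The medians of the 29 were 0.13 without peptide and -0.22 with it. The ligand genes with the most signal were AMH (115 CPM with DMSO, 74.0 CPM with Nutlin3a), GDF9 (100.5 and 93.5 CPM) and BMP4 (85.4 and 71.3 CPM). BMP15 had the largest value without peptide, 1.01, on 2.73 and 5.60 CPM, and stood at -1.84 with peptide. None of the 29 lay above GDF15 in the comparison without peptide or with it, where the highest was GDF1 at 1.02.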

How the data were processed

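The authors deposited raw read counts per 1000 bp window for 14 libraries, and a scaled signal for the 6 ChIP libraries that equals the counts times 1 constant each (0.595 to 1.82). The derivation of that constant, the aligner, the counter and the read filters: not given in the sources used here. The build is hg38 per the submitters' processing notes. Counts carry no stated strand. The windows held 1290223 to 2240951 counts per ChIP library and 161719 to 359276 per input, and counting floors (3 reads) cover counting error only.

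The main tests were edgeR 4.0.16 fits under R 4.3.3 (quasi-likelihood, TMM factors, filterByExpr with a minimum count of 10, Benjamini-Hochberg adjustment over all windows tested, threshold 0.05). The ChIP fit had 4 group means, 25901 windows and 2 residual degrees of freedom. Fits of all 14 libraries (21504 windows) and of the inputs (14573) used 1 mean per group. All 4 members passed every filter. CPM used TMM factors of ChIP libraries and inputs apart, and log2 ratios within a replicate number used a prior count of 2. The ChIP fit was also run on simulated counts of independent libraries, which does not cover libraries that deviate together. Alternatives were DESeq2 1.42.0, its size factors, the authors' constants, no filter, the replicate number as a block, and each ChIP library without peptide, or each input in its own fits, left out.

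Members, lists and tests were chosen with earlier results of these data known. Genes named were the members, all windows within 100 kb, the windows most like GDF15 (6) and PGPEP1 (3) by correlation, and up to 6 members of each list by level or change. The values of 1 listed gene are not reported here.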

Additional observations from a re-analysis of the deposited data

How the results depend on the processing

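Values are log2 changes. With the authors' constants, Nutlin3a against DMSO without peptide was 1.83 for GDF15 and 2.27 for MIR3189, while the median of all windows went from 0.04 to 0.53, so that relative to it the changes were 1.29 and 1.73. The same constants gave 0.11 for both in peptide against none under Nutlin3a and turned PGPEP1 to -0.12 in peptide against none under DMSO. Same-numbered DMSO and Nutlin3a ChIP libraries deviated together (r = 0.503 over 12991 windows). The sources used here do not say what libraries of the same number share. With the replicate number as a block, Nutlin3a against DMSO with peptide passed for GDF15 (1.38) and MIR3189 (1.59), with edgeR adjusted p = 0.00824 and 0.00139, and the block changed no other call of the members in the tested comparisons. Leaving out 1 replicate gave 1.37 to 1.38 for GDF15 and 1.58 to 1.59 for MIR3189 there. For MIR3189 it gave -1.03 to 0.79 in ChIP against input and -0.13 to 0.81 in the inputs. ChIP against input at GDF15 was -0.046 with DESeq2 and -0.047 with its size factors in edgeR. The difference of responses was -0.04 at GDF15 with the constants. At MIR3189 it was -0.27 with the constants and -0.30 to 0.0021 with 1 replicate left out. Nutlin3a against DMSO with peptide was also called for GDF15 and MIR3189 without Nutlin3a replicate 1 and without Nutlin3a replicate 2. In the tested comparisons no other call of GDF15 or MIR3189 changed under the alternatives run. Calls without peptide were not compared by window. The cause of these changes was not tested.

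Counts of called windows depended on the setting. Without peptide there were 2, against 8 with DESeq2, 0 with the constants, 39 with the block, 88 and 0 without DMSO replicates 1 and 2, and 32 and 26 without Nutlin3a replicates 1 and 2. With peptide there were 0, against 2 with DESeq2, 17 with the block, and 16 and 6 without Nutlin3a replicates 1 and 2. For peptide under DMSO there were 0, against 4 with the block, 53 without DMSO replicate 2 and 22 without Nutlin3a replicate 1. ChIP against input gave 3468, against 845 and 1414 without ChIP DMSO replicates 1 and 2 and 1038 without input DMSO replicate 1. The inputs gave 0, against 4 with no filter and 7 without input DMSO replicate 1. Subtracting depth-scaled input left 3 of 6 ChIP libraries at or below 0 at GDF15 or MIR3189, so no ratio could be formed that way. The inputs held 0 to 23 reads in each of the 4 windows.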

Other observations

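Windows that followed PGPEP1 most closely over the 6 ChIP libraries were those of REV3L (r = 0.989), the catalytic subunit of a translesion polymerase, and BAG1 (r = 0.988), a chaperone cofactor. REV3L shares its window in part with TRAF3IP2-AS1, the next (r = 0.985), and BAG1 shares its window in part with CHMP5. REV3L stood at 86.5 and 69.9 CPM with DMSO, 92.1 with peptide, 136 and 123 with Nutlin3a and 162 with both. BAG1 ranged only from 51.9 to 63.1 CPM. These r values are the top of a ranking and are descriptions.

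Input reads at the flanking windows were uneven between libraries of 1 treatment. LRRC25 had 19 and 2 reads in the DMSO inputs, 2 and 13 with peptide, 1 and 2 with Nutlin3a, and 8 and 1 with both. PGPEP1 had 9 and 18 reads in the DMSO inputs and 0 and 11 with Nutlin3a and peptide, where 0 allows up to 18.6 CPM. GDF15 was more even, with 4 to 20 reads over the 8 inputs.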
